A study of Homo sapiens with 27 samples.

Results

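Endocrine pancreas genes were followed across 27 RNA libraries from 3 human tumour cell lines. The list was set by name and held 9 genes: the islet hormones glucagon (GCG), insulin (INS) and somatostatin (SST), and the transcription factors PDX1, NEUROD1, NKX2-2, PAX6, INSM1 and ISL1. Of these 9, 8 had a row among the 23230 gene symbols used, and INS was not analysed here. SK-N-SH is a neuroblastoma line, while BON-1 and QGP-1 come from pancreatic neuroendocrine tumours. Cells of each line received the plasmid pCMV6-AC empty (vector), with the full-length MAML3 cDNA (FL), or with a MAML3 cDNA without its first exon (dEx1). The V5 tag at the carboxyl end was carried by both MAML3 constructs. The cells were transfected by lipofection, and RNA was taken on day 3. Each of the 9 groups held 3 libraries, which the labels call biological replicates.

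Islet hormones are each made by their own endocrine cell type, glucagon by alpha cells, insulin by beta cells and somatostatin by delta cells. The transcription factors act in a relay during development: PDX1 sets up the pancreatic field, NEUROD1 and INSM1 carry the endocrine programme, and NKX2-2, PAX6 and ISL1 shape and hold the hormone-producing cell types. ISL1 and INSM1 also serve sympathetic and adrenal neuroendocrine lineages, to which neuroblastoma is related. MAML3 belongs to the Mastermind-like coactivators, which join the Notch intracellular domain and the DNA-binding protein RBPJ to activate Notch targets, and Notch signalling is known to hold back endocrine differentiation.

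Levels are given as CPM, counts scaled to a common library total with TMM factors. The deposited values are estimated counts of unstated worth per fragment, with totals of 73026244 to 120254457 units per library. Low values heap at 5 units (7317 values), but 10 and 15 units showed no comparable heap (1988 and 1866 values). A worth of 5 units per fragment is therefore an assumption. On it, 15 units per library, 3 fragments at 5 units each, was taken as the floor of detection, for counting error only. All folds against the floor rest on this. A call is an adjusted p under 0.05 in edgeR's quasi-likelihood F test, with Benjamini-Hochberg adjustment over all genes tested in the comparison. The reported fits used group means without a term for the replicate. MAML3 was raised in every library given a construct. With vector it averaged 22 CPM in SK-N-SH, 67.8 CPM in BON-1 and 68.5 CPM in QGP-1. With FL the averages in the same order were 12018, 4042 and 5475 CPM. With dEx1 they were 9369, 3662 and 4283 CPM, a sum over the gene that does not tell the constructs apart. The 8 noradrenergic markers of neuroblastoma summed to 98.5 to 249 CPM in SK-N-SH, 34.8 to 78.1 CPM in BON-1 and 25.6 to 51.7 CPM in QGP-1. They did not all mark SK-N-SH. PHOX2A was at 0 in all BON-1 and QGP-1 libraries, while GATA2 ran from 34.2 to 77.7 CPM in BON-1 and from 10.4 to 35.4 CPM in SK-N-SH. Tyrosine hydroxylase (TH) did not exceed 0.0517 CPM in SK-N-SH and ran from 0.165 to 1.40 CPM in BON-1. Summed pan-neuroendocrine markers, 5 of 7 with a row, ran from 13139 to 40181 CPM in BON-1 and from 2213 to 6831 CPM in QGP-1. In SK-N-SH they ran from 401 to 1522 CPM. Several libraries stood apart within their line. In BON-1, vector replicate 1 was alone on the first principal component. In SK-N-SH, replicate 3 of every group lay above replicates 1 and 2 of that group on the second. In QGP-1 the first component, 60.4% of the variance, put vector replicate 2 and all replicates 3 on 1 side and the other 5 libraries on the other.

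The genes lie on 6 chromosomes and are given here with GRCh37 (hg19) coordinates and GENCODE models. GCG spans 162999392 to 163008757 on chromosome 2 with 6 exons, and NEUROD1 lies on the same chromosome at 182541194 to 182545244 with 2 exons. SST occupies 187386700 to 187388182 on chromosome 3 with 2 exons. ISL1 is found at 50679282 to 50690564 on chromosome 5 with 6 exons, and PAX6 at 31810574 to 31832870 on chromosome 11 with 14 exons. PDX1 lies at 28494137 to 28500450 on chromosome 13. NKX2-2 and INSM1 are both on chromosome 20, at 21491655 to 21494702 and 20348748 to 20351593, and INSM1 has a single exon. The promoters of the hormone genes GCG and SST are shown because the results on these genes are described in most detail. Each is the 250 bases before the annotated start, from RefSeq on GRCh38.p14, with matches on either strand to the letters TGACG, to TGGGAA and to TAAT in capitals.
GCG, chr2:162152248-162152497, minus strand: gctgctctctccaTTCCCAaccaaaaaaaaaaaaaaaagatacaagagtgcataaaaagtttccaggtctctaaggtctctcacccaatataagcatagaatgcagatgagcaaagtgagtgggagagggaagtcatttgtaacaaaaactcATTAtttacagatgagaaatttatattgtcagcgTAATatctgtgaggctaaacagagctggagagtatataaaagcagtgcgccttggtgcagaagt
SST, chr3:187670395-187670644, minus strand: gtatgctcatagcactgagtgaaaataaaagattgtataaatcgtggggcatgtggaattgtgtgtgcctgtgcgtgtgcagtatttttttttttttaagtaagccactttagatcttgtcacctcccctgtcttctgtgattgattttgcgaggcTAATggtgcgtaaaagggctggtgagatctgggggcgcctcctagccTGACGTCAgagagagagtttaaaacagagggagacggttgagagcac
The letters TGGGAA are the core of the RBPJ motif, TAAT is the core bound by homeodomain factors such as PDX1 and ISL1, and TGACG is a half-site of the cyclic AMP response element. The GCG window held 1 TGGGAA, on the reverse strand, and 2 TAAT. The SST window held the full element TGACGTCA, in which a half-site on each strand overlaps, and 1 TAAT. Among 35116 promoter windows of the same length, 1.65% held the full element, 21.2% its half-site, 20.8% the RBPJ core and 47.4% the homeodomain core. These are matches of letters only.

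The first question was which endocrine genes each line carried at baseline, with the empty vector. The 3 lines had different sets. SK-N-SH carried ISL1 alone at a clear level. BON-1 carried INSM1, NEUROD1, NKX2-2, SST and PDX1 with almost no PAX6 or ISL1. QGP-1 carried SST, INSM1, PAX6, ISL1, NKX2-2 and PDX1, and no NEUROD1 at all. In edgeR on all 27 libraries, 7 of 8 members were called between BON-1 and SK-N-SH, where 60.6% of all genes tested were called. The count was 7 of 8 between QGP-1 and SK-N-SH, against 60.6%, and 5 of 8 between QGP-1 and BON-1, against 51.4%.

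**Figure D1:**
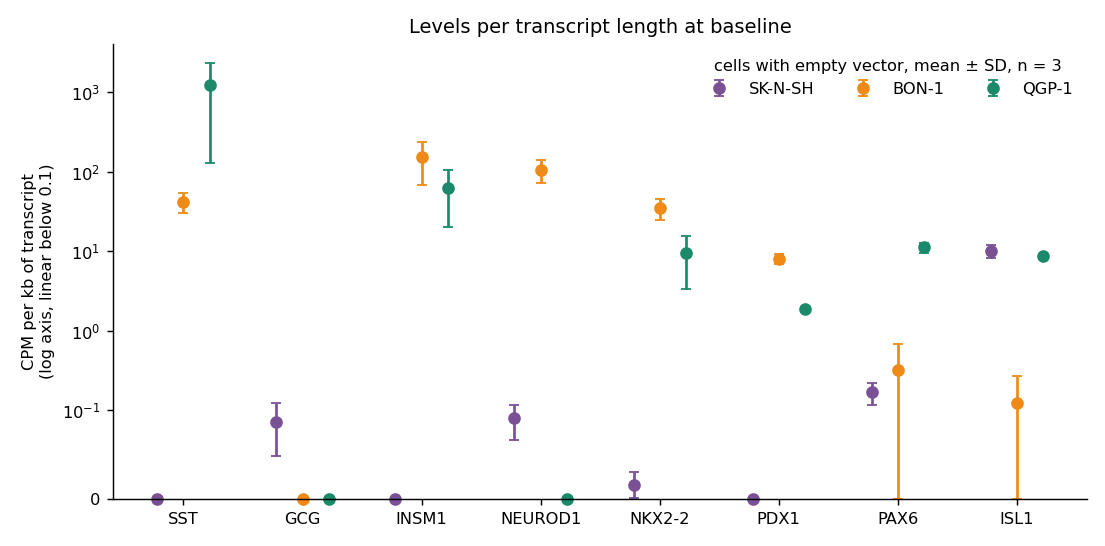
Level of each gene in vector libraries, as CPM per kb of its annotated transcript on a log axis that is linear below 0.1. Points are means and bars the SD of 3 libraries, which end at 0 where the SD exceeds the mean. SST in QGP-1 is the highest at 1218 CPM per kb, and ISL1 is the only gene of SK-N-SH above 1.

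Between genes, levels were compared per kb of transcript. In QGP-1, SST led at 1218 ± 1090 CPM per kb (SD, n = 3), before INSM1 at 62.9 ± 42.8, PAX6 at 11.1 ± 1.66, NKX2-2 at 9.46 ± 6.10, ISL1 at 8.69 ± 0.630 and PDX1 at 1.89 ± 0.0846. The libraries of PAX6, NKX2-2 and ISL1, neighbours in that order, overlapped. In BON-1, INSM1 stood at 151 ± 82.5 and NEUROD1 at 105 ± 33.4 CPM per kb, which overlapped. SST followed at 41.7 ± 11.8, NKX2-2 at 35 ± 10.3 and PDX1 at 8.09 ± 1.10, and the libraries of SST and NKX2-2 overlapped. In SK-N-SH, ISL1 stood at 10.0 ± 1.87 CPM per kb and every other member was under 0.2.

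SST, the hormone of delta cells, was at 0 in all 9 SK-N-SH libraries. With vector it measured 17.2, 28.4 and 30.4 CPM in BON-1 and 1503, 345 and 370 CPM in QGP-1, replicates 1 to 3. Groups did not overlap, and the log2 difference of QGP-1 from BON-1 was 4.87 (SE 0.64, adjusted p = 1.07e-05). Against the floor in SK-N-SH, SST was at least 151-fold higher in BON-1 and at least 4422-fold higher in QGP-1 (adjusted p = 1.24e-07 and 3.65e-09).

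PDX1, the homeodomain regulator of pancreatic development and of the insulin gene, was also at 0 throughout SK-N-SH. Its vector values were 17.8, 22.1 and 23.3 CPM in BON-1 and 5.03, 4.66 and 5.06 CPM in QGP-1, so that every BON-1 library lay above every QGP-1 library. The difference, QGP-1 against BON-1, was -2.10 on the log2 scale (SE 0.17, adjusted p = 3.95e-08). Over SK-N-SH, PDX1 was at least 126-fold higher in BON-1 and at least 29.4-fold higher in QGP-1 (adjusted p = 3.87e-14 and 2.44e-13).

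NEUROD1, a basic helix-loop-helix activator of hormone genes, separated the pancreatic lines most sharply. Its counts were 14306 to 38193 units over the 9 BON-1 libraries and 0 in all 9 QGP-1 libraries. With vector it measured 211, 358 and 217 CPM in BON-1, at least 1633-fold over the floor in QGP-1 (adjusted p = 1.00e-11). SK-N-SH held a trace of 26, 22 and 14 units with vector, 1 of these libraries lying under the floor. The log2 difference of BON-1 from SK-N-SH was 10.15 (SE 0.44, adjusted p = 1.75e-11). QGP-1 was lower than SK-N-SH, which stood at least 1.43-fold above the floor in QGP-1 (adjusted p = 1.55e-05).

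PAX6, a paired-box factor needed for alpha cells and for glucagon transcription, showed the opposite split. With vector it measured 25.3, 32.9 and 33.5 CPM in QGP-1, and 2.01, 0.417 and 0.236 CPM in BON-1. SK-N-SH values were 0.331, 0.626 and 0.440 CPM. QGP-1 lay above both lines without overlap, by 5.12 over BON-1 (SE 0.56, adjusted p = 1.27e-07) and by 6.04 over SK-N-SH (SE 0.59, adjusted p = 1.29e-08) on the log2 scale. BON-1 and SK-N-SH overlapped, and their fitted difference of 0.91 (SE 0.51, adjusted p = 0.128) rested on BON-1 vector replicate 1. Without that library it was -0.50 (adjusted p = 0.266), and without BON-1 vector replicate 3 it was 1.35 (adjusted p = 0.0160). The same library held 1257 CPM of the acinar protease gene PRSS1, against 86.4 and 86.9 CPM in the other vector libraries of BON-1, and the part of this in the PAX6 value was not tested.

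NKX2-2, a homeodomain factor of beta-cell identity, had 4, 5 and 0 units with vector in SK-N-SH, all under the floor. BON-1 measured 81.3, 91.8 and 49.6 CPM and QGP-1 5.30, 29.4 and 25.6 CPM, and both were called above SK-N-SH (adjusted p = 8.26e-07 and 5.19e-06). Every QGP-1 library lay below every BON-1 library. That difference of -1.89 on the log2 scale (SE 0.84) missed the threshold in edgeR with an adjusted p of 0.0670. It passed with the replicate block (adjusted p = 0.00396), with the 9 vector libraries alone (0.0353) and with counts divided by 5 (0.0340).

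INSM1, a zinc-finger repressor found in most neuroendocrine tumours, was at 0 in all SK-N-SH libraries. Its vector levels were 253, 696 and 338 CPM in BON-1 and 195, 50.002 and 292 CPM in QGP-1, which overlapped. The difference between the pancreatic lines was -1.26 on the log2 scale (SE 0.76, adjusted p = 0.185). Both were above SK-N-SH, at least 2565-fold and at least 1070-fold against the floor (adjusted p = 2.75e-07 and 5.71e-07).

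ISL1, a LIM-homeodomain factor of islet cells and of sympathetic neurons, was shared by the neuroblastoma line and QGP-1. With vector it measured 26.4, 26.8 and 18.9 CPM in SK-N-SH and 22.5, 20.5 and 19.5 CPM in QGP-1, which overlapped. In BON-1 the values were 0, 0.688 and 0.212 CPM. The log2 difference of BON-1 from SK-N-SH was -6.29 (SE 0.66, adjusted p = 3.86e-08). QGP-1 was higher than BON-1 by 6.08 (SE 0.65, adjusted p = 9.47e-08). GCG was at 0 in every BON-1 and QGP-1 vector library and at 9, 12 and 5 units in SK-N-SH, under the floor, so the 2 calls it received in these comparisons are not read as a direction. Both were lost with counts divided by 5 (adjusted p = 0.0773 for BON-1 and 0.0617 for QGP-1) and with the replicate block (0.0681 and 0.0668). The call for BON-1 was also lost without SK-N-SH vector replicate 2 (0.0520) or any 1 of the BON-1 vector libraries (0.0521, 0.0575 and 0.0581 without replicates 1, 2 and 3).

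Beside the members, 4 lists of islet genes were followed. Of 22 other islet transcription factors, 21 were tested between lines. BON-1 was above SK-N-SH in 16 and below in 2, QGP-1 above SK-N-SH in 14 and below in 3, and QGP-1 above BON-1 in 7 and below in 8. The called shares were 85.7%, 81% and 71.4%, beside 60.6%, 60.6% and 51.4% of all genes, and the median log2 differences were 6.93, 4.62 and 0.34. Where a gene was at 0 in a line, its fitted difference was not held to the floor, so these medians are not measured sizes. FOXA2, a foregut pioneer factor, measured 274 ± 75.8 CPM in BON-1 and 247 ± 10.6 CPM in QGP-1 with vector and 0 in SK-N-SH. HNF4A (157 ± 53.0 CPM) and RFX6 (62.0 ± 17.9 CPM), factors of endoderm and islet development, marked BON-1. With vector, HNF4A was at 0 in the other lines, and RFX6 did not exceed 9 units in QGP-1. QGP-1 was set apart by NKX6-1, a beta-cell factor, at 2.42 ± 2.05 CPM against 0 in both other lines. It also held ST18 at 137 ± 80.2 CPM, against 8.57 ± 0.991 CPM in BON-1. SOX11, a factor of immature neurons, was the reverse, at 75.2 ± 18.7 CPM in SK-N-SH and at most 1 unit in the pancreatic vector libraries.

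Of 18 other islet and gut hormones, 13 were tested between lines, and 6 were higher and 2 lower in BON-1 than in SK-N-SH. In QGP-1, 3 were higher and 3 lower than in SK-N-SH, and against BON-1 3 were higher and 5 lower. The called shares of 61.5%, 46.2% and 61.5% stood beside 60.6%, 60.6% and 51.4% of all genes, so the first was near and the second below the share over all genes. CALCA, which encodes calcitonin and CGRP, measured 3263 ± 535 CPM in QGP-1 with vector, 0 in BON-1 and at most 5 units in SK-N-SH. NTS, the neurotensin gene, stood at 1094 ± 155 CPM in QGP-1 and 102 ± 44.8 CPM in BON-1. BON-1 instead held GHRL (ghrelin) at 37.4 ± 7.93 CPM and ADCYAP1 at 21.5 ± 4.34 CPM. SK-N-SH held NPY, the sympathetic transmitter neuropeptide Y, at 8.11 ± 6.58 CPM, and both pancreatic vector groups had none.

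Of 20 genes for nutrient sensing, secretion and hormone receptors, 16 were tested between lines. Against SK-N-SH, 11 were higher and 0 lower in BON-1, and 9 were higher and 6 lower in QGP-1. QGP-1 was above BON-1 in 1 and below in 7. The called shares were 68.8%, 93.8% and 50%, the last near the 51.4% of all genes. ABCC8, the sulphonylurea receptor, measured 26.9 ± 11.7 CPM in BON-1, 43.9 ± 9.26 CPM in QGP-1 and 0 in SK-N-SH. SSTR5, a somatostatin receptor, was at 184 ± 42.4 CPM in BON-1 and 16.4 ± 1.49 CPM in QGP-1. All 11 repressors of endocrine differentiation were tested. REST, which silences neuroendocrine genes, measured 71.0 ± 7.57 CPM in SK-N-SH, 21.0 ± 6.12 CPM in BON-1 and 3.13 ± 0.395 CPM in QGP-1. In the repressor list BON-1 was above SK-N-SH in 6 and below in 1, QGP-1 above SK-N-SH in 6 and below in 3, and QGP-1 above BON-1 in 3 and below in 6. The called shares were 63.6%, 81.8% and 81.8%, the first near the 60.6% of all genes.

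The second question was what MAML3 did to these genes within each line. Of the 3 members tested in SK-N-SH, 0 were called with FL against vector, where 1.74% of all genes were called, and 0 with dEx1 against vector, where 4.47% were. Between dEx1 and FL, 1 of 3 was called, where 22% of all genes were. At an unadjusted p under 0.05 the counts were 1, 0 and 1, and DESeq2 called 1, 0 and 1. In BON-1 all 8 were tested and edgeR called 0 in each comparison, where 0.00671%, 0.0134% and 0% of all genes were called for FL against vector, dEx1 against vector and dEx1 against FL. The unadjusted counts there were 1, 0 and 0, and DESeq2 called 0 in each. In QGP-1, 7 were tested and edgeR called 0 in each comparison, where 0.0275%, 0.0207% and 0.0138% of all genes were called. The unadjusted counts were 1, 0 and 1, and DESeq2 called 1, 0 and 1. Each of these was GCG, whose p-values are description only, for the reason given below. FL and dEx1 were compared with the same vector libraries, so their values are not independent.

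**Figure D2:**
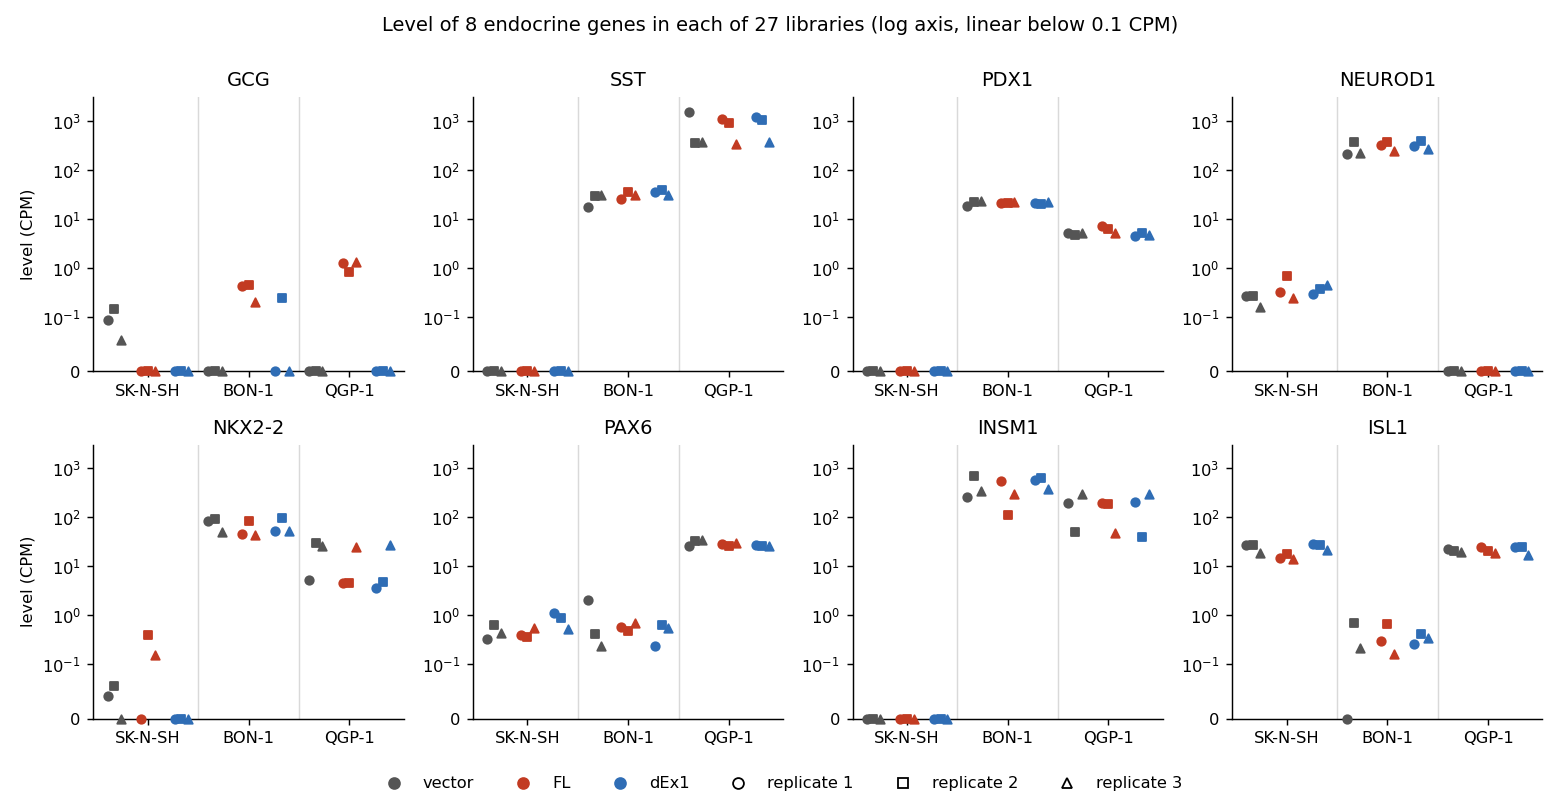
Level in CPM of the 8 genes in each library, by line and construct, on a log axis that is linear below 0.1 CPM. Colours stand for the constructs and marker shapes for the replicates. NEUROD1 is at 0 in every QGP-1 library, and SST, PDX1 and INSM1 in every SK-N-SH library.

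GCG, the alpha-cell hormone gene, was counted in QGP-1 only with full-length MAML3. The FL libraries held 125, 105 and 139 units, and all 3 vector and all 3 dEx1 libraries held 0. The groups did not overlap, and all FL libraries were above the floor of 15 units. The FL mean was 1.12 ± 0.286 CPM (SD, n = 3), at least 7.0-fold above the floor in vector and at least 7.29-fold above that in dEx1. GCG passed the count filter in QGP-1 only through the FL libraries, so its p-values in this line are given as description. In edgeR the difference of FL from vector had an unadjusted p of 0.000199 and an adjusted p of 0.241, and that from dEx1 an adjusted p of 0.322. DESeq2 gave adjusted p of 1.54e-08 and 1.29e-08 for the same comparisons. Over the other alternatives in which GCG was tested, edgeR did not call it, with an adjusted p of up to 0.929 against vector and up to 1 against dEx1. A pattern shaped on these GCG counts was then counted over all genes, as a description and not a test. GCG was the only symbol of 23230 with more than 15 units in each QGP-1 FL library and 0 in the other 6 libraries of the line. The numbers of such genes were 6 for FL in SK-N-SH, 1 for FL in BON-1, and 0 for vector or dEx1 in any line.

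In BON-1 the GCG counts were 45, 41 and 20 units with FL, 0, 24 and 0 with dEx1 and 0 in all vector libraries. The FL libraries lay above all vector libraries and overlapped with dEx1 replicate 2. The FL mean was 0.359 ± 0.135 CPM, at least 1.85-fold above the floor in vector (adjusted p = 0.928 in edgeR, and 0.337 to 1 over the alternatives). In SK-N-SH, where FL gave the highest MAML3 level, all 6 construct libraries were at 0. The effect of FL on GCG in QGP-1 minus that in SK-N-SH had an adjusted p of 0.0731 in edgeR and 0.00471 in DESeq2. For BON-1 minus SK-N-SH the values were 0.0914 and 0.0212. Both contrasts also use the counts under the floor in SK-N-SH vector. In BON-1 and over all 27 libraries GCG again passed the count filter mainly through its FL libraries. Its p-values there are likewise given as description.

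**Figure D3:**
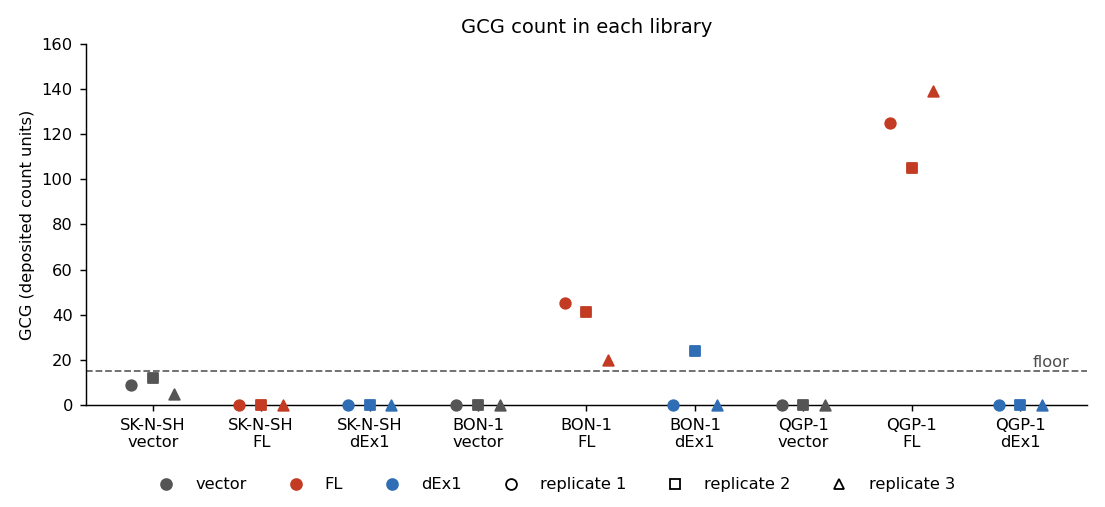
GCG in each library in the deposited count units, with the floor of 15 units as a dashed line. Colours stand for the constructs and marker shapes for the replicates. The 3 QGP-1 FL libraries sit between 105 and 139 units and the other 6 libraries of the line at 0.

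PAX6, which activates glucagon transcription in alpha cells, was measured in every QGP-1 group. It stood at 28.3, 26.0 and 29.1 CPM with FL and 27.3, 25.8 and 26.0 CPM with dEx1, overlapping with vector, and was not called within QGP-1.

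ISL1 was the member whose level followed the construct in SK-N-SH. It measured 26.4, 26.8 and 18.9 CPM with vector, 14.5, 18 and 13.8 CPM with FL and 28.2, 27.4 and 20.8 CPM with dEx1. All FL libraries lay below all vector and all dEx1 libraries, while vector and dEx1 overlapped. The log2 difference of ISL1 between dEx1 and FL was 0.73 (SE 0.18, adjusted p = 0.0213 in edgeR), higher in 3 of 3 libraries. The difference between FL and vector was -0.64 (SE 0.18) and missed the threshold with an adjusted p of 0.126, while it passed with the replicate block (0.0250), with a term for replicate 3 (0.0135) and in DESeq2 (0.0254). Between dEx1 and vector it was 0.09 (SE 0.18, adjusted p = 0.813). The call between dEx1 and FL was lost without FL replicate 1 (adjusted p = 0.0765), FL replicate 3 (0.0630), dEx1 replicate 1 (0.0741) or dEx1 replicate 2 (0.0650), and in 1 fit of all 27 libraries (0.407).

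**Figure D4:**
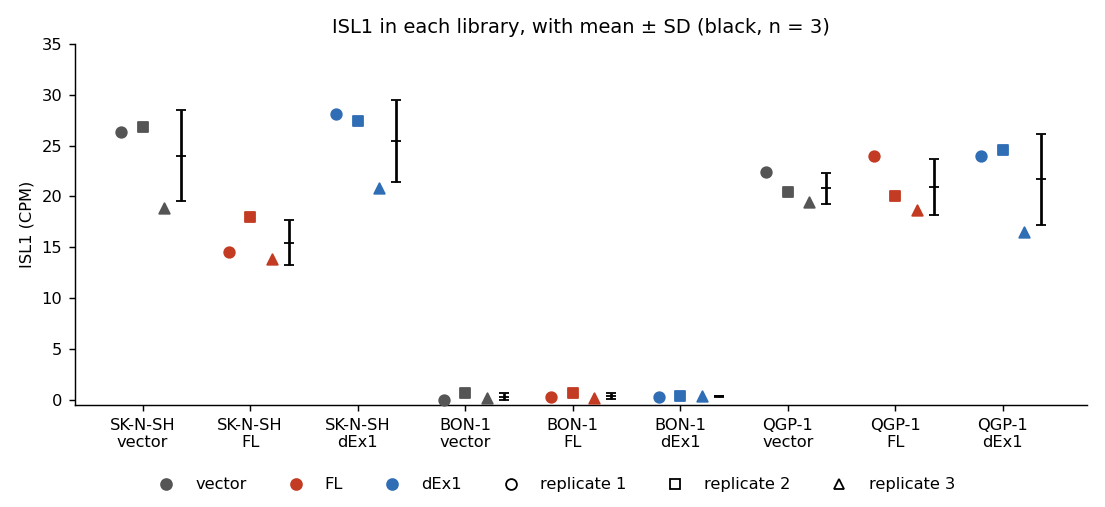
ISL1 in CPM in each library, with mean and SD of each group of 3 in black. Colours stand for the constructs and marker shapes for the replicates. In SK-N-SH the FL libraries lie between 13.8 and 18 CPM, below the lowest vector library at 18.9 CPM.

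Noradrenergic, stromal, pan-neuroendocrine and leukocyte markers were set beside ISL1 in SK-N-SH. The summed level of the 8 noradrenergic markers was 225, 221 and 132 CPM with vector and 156, 206 and 98.5 CPM with FL. With dEx1 it was 237, 249 and 184 CPM, so that replicate 3 was lowest in every group, as for ISL1. HAND2, a sympathetic lineage factor of that list, was higher with dEx1 than with FL by 1.21 (SE 0.21, adjusted p = 0.00533), the only one called of 7 tested. Without HAND2 the other 7 markers summed to 152, 146 and 71.1 CPM with vector, 96.4, 141 and 64.0 CPM with FL and 111, 133 and 58.2 CPM with dEx1. These sums overlapped between all groups, as did those of all 8 markers. HAND2 was left out because it was called in these same data, so the overlap without it is description only. Summed stromal markers were 3006, 2593 and 8417 CPM with vector, 2850, 2601 and 4463 CPM with FL and 8942, 6529 and 10120 CPM with dEx1. All stromal sums with FL lay below all those with dEx1, while those with vector overlapped with both. In every group, replicate 3 had the highest stromal sum and the lowest ISL1. Summed pan-neuroendocrine markers were 564, 577 and 1451 CPM with vector and 401, 417 and 525 CPM with FL. With dEx1 they were 846, 795 and 1522 CPM. As for ISL1, all FL libraries lay below all vector and all dEx1 libraries, and most of each sum was SCG2. Summed leukocyte markers ran from 223 to 318 CPM with vector, 420 to 538 with FL and 78.4 to 92.8 with dEx1, without overlap. In bulk RNA, fewer cells of a type and less RNA per cell cannot be told apart, and the part of these markers in the ISL1 difference was not tested. In the other lines ISL1 did not follow the construct. QGP-1 averaged 20.8 ± 1.51 CPM with vector, 20.9 ± 2.74 with FL and 21.7 ± 4.48 with dEx1, which overlapped, and BON-1 stayed at 0.659 CPM or less with either construct.

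The remaining members of SK-N-SH were traces. NEUROD1 held 26, 22 and 14 units with vector, 25, 61 and 24 with FL and 24, 34 and 37 with dEx1. In CPM all dEx1 libraries were above all vector libraries, a difference of 0.66 (SE 0.56, adjusted p = 0.532). PAX6 ran from 31 to 90 units, and NKX2-2 reached 35 and 15 units in FL replicates 2 and 3 and was at 0 in every dEx1 library. SST, PDX1 and INSM1 were at 0 with either construct, so neither form of MAML3 gave a detectable count of these genes at this depth.

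In BON-1 the strongly expressed members differed between libraries more than between constructs. SST averaged 25.3 ± 7.14 CPM with vector, 30.2 ± 5.17 with FL and 34.4 ± 4.24 with dEx1, which overlapped. NEUROD1 averaged 262 ± 83.4, 309 ± 62.9 and 319 ± 62.4 CPM, and NKX2-2 74.2 ± 22, 56.6 ± 21.7 and 66.3 ± 26.1 CPM, with overlap in each case. PDX1 was the steadiest, at 21.1 ± 2.87, 21.0 ± 0.466 and 20.8 ± 1.05 CPM. Its SD of log2 CPM over the 9 libraries, 0.11, was at the 7.74th percentile of 11499 genes. INSM1 measured 253, 696 and 338 CPM with vector, 533, 110 and 299 CPM with FL and 561, 612 and 377 CPM with dEx1. The lowest of these was FL replicate 2, while the other members were not low in that library.

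In QGP-1, SST and NKX2-2 differed between libraries in a way that cut across the constructs. SST measured 1503, 345 and 370 CPM with vector, 1073, 884 and 331 CPM with FL and 1171, 1012 and 362 CPM with dEx1. NKX2-2 was its mirror image, at 5.30, 29.4 and 25.6 CPM with vector, 4.48, 4.61 and 25.0 CPM with FL and 3.51, 4.68 and 26.7 CPM with dEx1. Vector replicate 2 and the replicates 3 of all groups held 331 to 370 CPM of SST and 25.0 to 29.4 CPM of NKX2-2. The other 5 libraries held 884 to 1503 CPM of SST and 3.51 to 5.30 CPM of NKX2-2, with no overlap for either gene. These are the same sets of libraries that the first principal component separated, and each construct had libraries on both sides. SST and NKX2-2 were among the genes from which that component was computed. How many other genes also separated these sets was not counted, so the split is not read as particular to these members. The libraries low in SST also had more pan-neuroendocrine marker RNA, 6507 to 6831 CPM against 2213 to 3863 CPM. What set these libraries apart is not given in the labels and was not tested. With a term for the 2 sets of libraries, edgeR still called 0 of the members in each QGP-1 comparison.

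**Figure D5:**
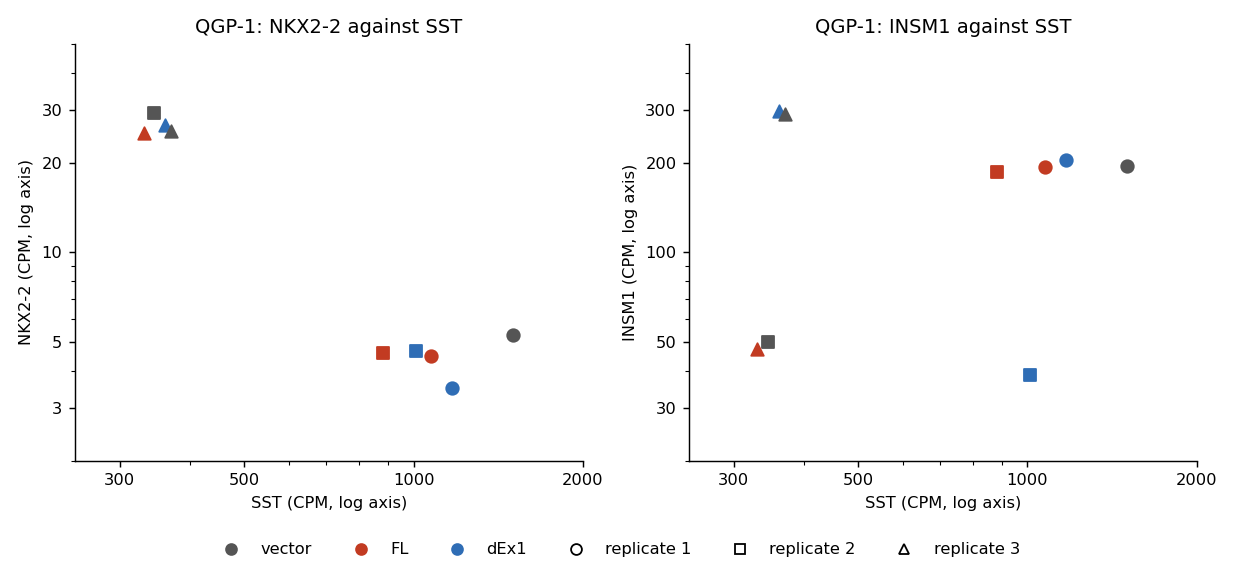
NKX2-2 (left) and INSM1 (right) against SST in the 9 QGP-1 libraries, in CPM on log axes. Colours stand for the constructs and marker shapes for the replicates. NKX2-2 is at 25.0 CPM or more in the 4 libraries low in SST, and INSM1 is low in 3 libraries that lie on both sides.

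INSM1 in QGP-1 varied as much but in other libraries. It measured 195, 50.002 and 292 CPM with vector, 193, 185 and 47.5 CPM with FL and 204, 38.8 and 299 CPM with dEx1. The low libraries were vector replicate 2, FL replicate 3 and dEx1 replicate 2, 1 in each group, of which dEx1 replicate 2 was on the high-SST side. CLDN4, an epithelial marker, also jumped between QGP-1 libraries, at 8.98, 11.7 and 450 CPM with vector. It measured 12.4, 347 and 397 CPM with FL and 410, 8.98 and 16.6 CPM with dEx1. What made such jumps was not tested. Over the 9 libraries the SD of log2 CPM was 1.36 for NKX2-2, 1.18 for INSM1 and 0.90 for SST, at the 99.5th, 99.3rd and 98th percentile of 11242 genes. PAX6, ISL1 and PDX1 were steady in the same libraries, with an SD of 0.15, 0.19 and 0.21 and percentiles of 26.9, 40.6 and 44.5. PDX1 measured 7.13, 6.0 and 5.10 CPM with FL, above all vector libraries at 4.66 to 5.06 CPM. That difference was 0.31 on the log2 scale (SE 0.17, adjusted p = 0.999) and did not pass in any alternative. NEUROD1 was at 0 in all QGP-1 libraries, with either construct as with vector.

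The test of the difference of effects between lines called 0 of the 8 members in each of 6 contrasts. A gene at 0 in both groups of a line could not be called. This holds for SST, PDX1 and INSM1 in contrasts with SK-N-SH and for NEUROD1 in those with QGP-1. It also holds for GCG in the dEx1 contrasts with QGP-1. In the FL contrast of QGP-1 minus BON-1, GCG was at 0 with vector in both lines. For these members the absence of a call says nothing about the effect. For the FL effect, the shares of all genes called were 0.284% for BON-1 minus SK-N-SH, 0.16% for QGP-1 minus SK-N-SH and 0.0118% for QGP-1 minus BON-1. For the dEx1 effect they were 0.332%, 0.521% and 0%. At an unadjusted p under 0.05 the members counted 1, 1 and 0 for FL and 2, 0 and 0 for dEx1. DESeq2 called 1, 1 and 0 for FL, GCG in both cases, and 0, 0 and 0 for dEx1. The GCG calls are description only, because of how GCG passed the filter. Of 61 genes on the 4 lists, edgeR called 0 in each contrast. The unadjusted counts were 9, 14 and 3 for FL and 11, 14 and 2 for dEx1, and DESeq2 called 5, 8 and 0 for FL and 6, 6 and 0 for dEx1.

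Genes of the 4 lists were called by edgeR in SK-N-SH and not in the other lines, where at most 0.0275% of all genes were called in any comparison. With FL against vector in SK-N-SH, 3 of 36 tested were called, 8.33% beside 1.74% of all genes. GLIS3, a zinc-finger activator of islet genes, was higher with FL, at 43.7 ± 21.9 CPM against 12.2 ± 1.33 CPM (log2 difference 1.83, SE 0.35, adjusted p = 0.0453). HEY1, a Notch target and repressor, fell by 1.49 from 7.65 ± 1.34 to 2.73 ± 1.09 CPM (SE 0.30, adjusted p = 0.0483), and ID2, which blocks helix-loop-helix activators, fell by 0.61 (SE 0.10, adjusted p = 0.0267). These calls depended on single libraries. Without vector replicate 1 or 2, FL replicate 1 or 2, or dEx1 replicate 1 or 3, 0 listed genes were called, 1 without dEx1 replicate 2 and 5 without FL replicate 3. With the replicate block 5 were called. The median log2 difference was 0.52 for islet factors, 0.05 for hormones, -0.06 for sensing and receptor genes and -0.45 for repressors, beside -0.01 for all genes.

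With dEx1 against vector, 3 of the 36 were called in SK-N-SH, 8.33% beside 4.47% of all genes. All 3 were lower, as were 534 of the 656 genes called in that comparison. SSTR2 fell by 3.00 from 7.97 ± 1.67 to 0.988 ± 0.517 CPM (SE 0.46, adjusted p = 0.0140), SSTR1 fell by 1.48 (SE 0.25, adjusted p = 0.0174) and SOX9, a progenitor factor, fell by 0.71 (SE 0.15, adjusted p = 0.0341). Leaving out a library brought the count of listed genes to 0 without vector replicate 1 or dEx1 replicate 1, to 1 without vector replicate 2 or dEx1 replicate 3 and to 5 without vector replicate 3. Between dEx1 and FL, 9 of 36 were called, 25% beside 22% of all genes, so that this share was near the background. The somatostatin receptor genes SSTR1 and SSTR2 were lower with dEx1, by -1.46 and -2.94 (SE 0.25 and 0.46, adjusted p = 0.00508 and 0.00340). PTPRN, a protein of dense-core granules, was lower at 11.6 ± 2.23 against 75.0 ± 46.1 CPM (-2.68, SE 0.52, adjusted p = 0.00812). HEY1 was higher by 1.35 (SE 0.30, adjusted p = 0.0138). These 4 calls held in all 18 alternatives. In BON-1, 0 of 54 listed genes were called in each comparison, with 9, 5 and 0 at an unadjusted p under 0.05 and 1, 2 and 0 called by DESeq2, for FL against vector, dEx1 against vector and dEx1 against FL. In QGP-1, 0 of 45 were called in each, with 3, 1 and 0 unadjusted and 0 by DESeq2.

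Genes with the most similar pattern were sought by Pearson correlation of log2 CPM over the 27 libraries, among 12850 genes, as a description that mostly reflects the gaps between the 3 lines. For SST these were GRIK3 (0.997), OTOP3 (0.994) and COMTD1 (0.994). For PDX1 they were CDX2 (0.999), the intestinal homeobox gene, TMEM144 (0.999) and FA2H (0.999). NEUROD1 was followed by GRTP1 (0.990), SNHG7 (0.988) and SOX6 (0.988), and NKX2-2 by NR0B2 (0.985), THPO (0.985) and INPP1 (0.982). PAX6 was nearest to PTPRM (0.984), PLA2G3 (0.984) and TRIM68 (0.982), and INSM1 to RNF128 (0.992), F5 (0.991) and TTC39A-AS1 (0.991). ISL1 was nearest to DPYSL4 (0.987), LIFR (0.977) and SNX7 (0.977). CDX2, like PDX1, was at 0 in SK-N-SH and ran from 70.7 to 92.7 CPM in BON-1 and from 13.1 to 23 CPM in QGP-1.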

How the data were processed

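RNA-seq libraries (TruSeq mRNA kit) were analysed from 27 samples in 9 groups of 3, grouped by the cell line and plasmid in their titles. Per the submitters' processing notes, reads were trimmed with Trimmomatic, aligned to hg19 with HISAT2 and quantified with StringTie, with versions, annotation and counting strand not given in the sources used here. The authors deposited estimated counts per gene symbol, as whole numbers. How they were made from StringTie output is not stated. Of 23234 rows, 4 repeated a symbol with identical values and were dropped. The members and gene lists were chosen with earlier results of these data known. Genes were named by rule: all members, MAML3, up to 4 called genes per list and comparison, and the 3 most correlated genes per member. Some genes that this rule names are not reported here.

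Counts were filtered with filterByExpr, scaled with TMM and tested with edgeR 4.0.16 (R 4.3.3). Each line was fitted on its 9 libraries, and contrasts between lines on all 27. The p-values were adjusted by Benjamini-Hochberg, threshold 0.05, over all genes tested. Log2 CPM used a prior count of 2. Figures used matplotlib 3.10.9. The procedure was tested on simulated data. Folds against a group at 0 are lower bounds against an assumed floor of 15 units per library. Totals of 73026244 to 120254457 units, of unknown worth per fragment, limit precision at low counts.

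Same-numbered libraries were rated as paired where every residual correlation was above 0.1. The reported tests did not use this pairing. They compared group means without a term for the replicate, and the replicate block was an alternative. The lowest correlation was 0.118 in SK-N-SH and 0.110 in BON-1. In QGP-1 it was 0.468 between the construct groups, which were rated as paired, and -0.369 and -0.402 for FL and dEx1 against vector, which were not. The alternatives were no filter, a minimum mean of 2 CPM, DESeq2 1.42.0 or its size factors, counts divided by 5, a replicate block, other sets of libraries in the fit, terms for libraries that stood apart, and each library left out.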

Additional observations from a re-analysis of the deposited data

How the results depend on the processing

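Of 306 counts of called members over 18 comparisons, 294 were within 1.5 times the reported count and 12 were not. In SK-N-SH, FL against vector had 0 called members and 1 with DESeq2, with the replicate block and with a term for replicate 3, ISL1 in each case. For dEx1 against FL the count of 1 became 0 in 1 fit of all 27 libraries, where the spread is shared with the other lines, and ran from 0 to 1 when single libraries were left out. DESeq2 called 1 member, GCG, where edgeR called 0, in QGP-1 for FL against vector and for dEx1 against FL, and in the FL effect of BON-1 minus SK-N-SH and of QGP-1 minus SK-N-SH. GCG passed the count filter mainly through its FL libraries, so these GCG calls are description only. The causes of the differences between tools were not tested. The replicate block changed no other count of members by more than 1.5 times.

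Of 1175 alternative values for single named genes, 1087 kept direction and side of the threshold, 75 lost and 11 gained a call, and 2 changed sign. ISL1 for dEx1 against vector in SK-N-SH ran from -0.064 without vector replicate 3 to 0.20 without dEx1 replicate 3. PAX6 for BON-1 against SK-N-SH ran from -0.50 without BON-1 vector replicate 1 to 1.35 without its replicate 3. Of 1822 alternative values for uncalled differences of members, 139 changed sign, and of 261 for called ones 0 did. Listed genes called in SK-N-SH ran from 0 to 8 for FL against vector (3 as reported), from 0 to 6 for dEx1 against vector (3) and from 6 to 13 for dEx1 against FL (9), and DESeq2 called 1 and 2 in BON-1 for FL and dEx1 against vector. Without scaling, 67 of 72 group levels moved by no more than 1 SD and none by more than 8.43%. The 67 include the groups at 0 in every library, whose level could not move. Depth limits what can be said of GCG, of NEUROD1, PAX6 and NKX2-2 in SK-N-SH, and of any change in the genes at 0. Against the floor of 15 units, PAX6 in SK-N-SH held 31 to 90 units and GCG in QGP-1 FL 105 to 139 units.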
